A study of Homo sapiens with 18 samples.

Results

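NGFR, the p75 neurotrophin receptor, and 7 further genes of neurotrophin signalling were followed by RNA-seq in A549 cells, a lung adenocarcinoma line, treated with sodium propionate (SP), the salt of a short-chain fatty acid. The 8 genes were found in the count tables as the rows whose Ensembl identifier carries the symbol NGFR, NTRK2, NTRK3, BDNF, NTF3, NTF4, SORT1 or SORCS2 in the GENCODE annotation, and they are 8 of the 61541 genes listed. They were chosen by name with earlier results of these libraries known, and NGFR was selected on its counts in SP against control. Their values in SP against control are therefore a description of the chosen genes, and nothing is read from calls made on them there.

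Neurotrophins are secreted growth factors made as precursors (proneurotrophins) and cut to a mature form. The mature ligands, among them BDNF, NT-3 (NTF3) and NT-4 (NTF4), bind Trk receptor tyrosine kinases, with BDNF and NT-4 preferring TrkB (NTRK2) and NT-3 preferring TrkC (NTRK3). NGFR is a member of the TNF receptor superfamily that binds every neurotrophin and, together with the sorting receptors sortilin (SORT1) and SorCS2 (SORCS2), their precursors. In the lung NGFR marks basal cells of the airway, and elsewhere it marks neural crest and glial cells.

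All libraries came from wild-type A549 cells of 1 line, so no animal or donor varies between them. Cells received SP at 5 mM for 3 h, 24 h, 3 days or 12 days, and untreated cells were taken at 24 h and at 3 days. Each of the 6 groups held 3 libraries, 18 in all. The 3 h and 24 h SP libraries were set against the 24 h control, and the 3 day and 12 day SP libraries against the 3 day control. The 3 h and 12 day groups have no control of their own time, so SP and time in culture cannot be told apart there. The study describes the 3 h and 24 h libraries as biological replicates. For the 3 day and 12 day libraries no such statement was found, and their p-values measure the spread between these libraries, which may be technical.

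Libraries held between 14187400 and 43765300 counted reads. All 11 markers of the carcinoma line were detected in every group, with a summed level of 20400 to 27200 CPM (counts scaled to a common library size with TMM factors). PTPRC, CD3E and DCN, markers of leucocytes, T cells and fibroblasts, were at 0 in 3, 6 and 4 of the 6 groups in turn. They belong to a list of 12 immune, endothelial and fibroblast markers, of which 1 to 5 were at 0 in a group. The list summed to 7.57 to 23.7 CPM in the 24 h control and 63.9 to 92.6 CPM at SP 24 h. Replicate 3 of SP 12 days stood apart from replicates 1 and 2, at a root-mean-square log2 distance of 0.333 and 0.389 against 0.151 between those, and was nearer to the SP 3 day libraries (0.282 to 0.311). Replicates of the 24 h control were 0.348 to 0.68 apart, compared with 0.164 to 0.238 for the 3 day control. Levels of the 24 h and 3 day sets come from tables that were normalised separately.

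NGFR (ENSG00000064300, GRCh38 chr17:49495293-49515008, plus strand) was nearly silent in untreated cells and present in every SP library. The 24 h control libraries had 0.159, 0.264 and 0.175 CPM, which are 3, 5 and 5 reads. At 3 h of SP the libraries had 2.61, 6.16 and 4.32 CPM, and at 24 h they had 11.1, 26.7 and 17.8 CPM. In both groups every SP library was above every control library. Among all tested genes, every SP library was above every control library for 15.6% at 3 h and 24.6% at 24 h. The share was 30.5% at 3 days and 28.7% at 12 days. Every SP library was below every control library for 11.7%, 19.8%, 30.7% and 27.3% of genes in the same order. The 3 day control libraries held 0.0956, 0.1253 and 0.118 CPM, or 2 reads each. After 3 days of SP the libraries had 14.5, 13.6 and 16.4 CPM, and after 12 days they had 6.01, 3.99 and 11.3 CPM. The highest value at 12 days belongs to replicate 3, the library that stood apart.

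**Figure D1:**
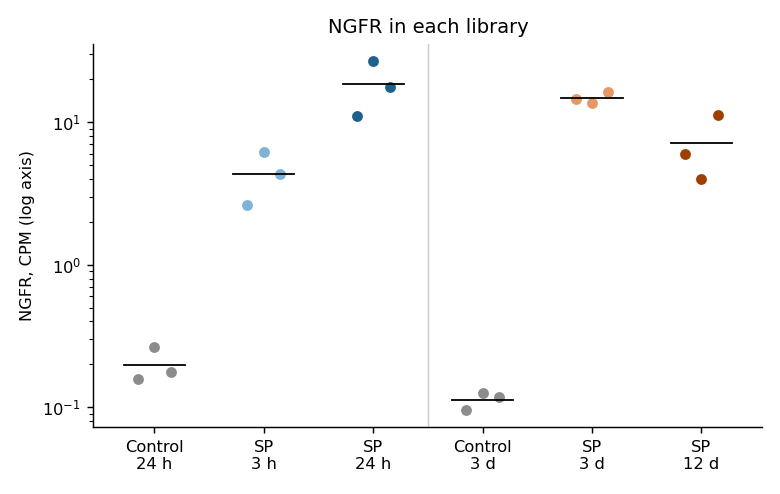
NGFR level in each library, in CPM on a log axis, for the 24 h set on the left and the 3 day set on the right. Points are single libraries and bars the mean of 3, with controls between 0.0956 and 0.264 CPM and SP libraries between 2.61 and 26.7 CPM.

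The NGFR log2 fold change against control was 4.47 ± 0.53 (SE, n = 3 against 3) at 3 h, 6.53 ± 0.52 at 24 h, 6.97 ± 0.54 at 3 days and 5.92 ± 0.58 at 12 days. Few control reads bound these folds from above only loosely. The ratio of reads summed over each group was 24.4 at 3 h with an exact 95% interval of 14.1 to 46.4, and 103 at 24 h (60.0 to 193). It was 133 at 3 days (60.8 to 364) and 66.0 at 12 days (30.1 to 181). These intervals cover counting error only. Ordered by log2 fold change from the highest, NGFR stood 15th and 12th of 17377 genes at 3 h and 24 h, and 17th and 32nd of 17775 genes at 3 and 12 days. An antisense gene, NGFR-AS1, and a further unnamed transcript on the opposite strand share 1126 of the 4141 exonic bases of NGFR. Those 2 genes held at most 3 reads and 1 read per group, while NGFR held 333 to 1995 reads in the SP groups.

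NTRK3 (ENSG00000140538, chr15:87859751-88256791, minus strand), which encodes the NT-3 receptor TrkC, was present in every library. The 24 h control had 39.4, 66.7 and 71.6 CPM, SP 3 h had 52.7, 73.0 and 49.0, and SP 24 h had 45.5, 47.3 and 45.7. These 3 groups overlapped, apart from SP 24 h lying below SP 3 h. The 3 day control had 93.8, 96.6 and 107.9 CPM, SP 3 days had 120.0, 118.7 and 130.4, and SP 12 days had 57.0, 47.6 and 95.4. Replicate 3 of SP 12 days was within the range of the control and the other two were below it. The log2 fold change against control was -0.02 at 3 h, -0.36 at 24 h, 0.31 at 3 days and -0.57 at 12 days, each with an SE of 0.22.

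NTRK2 (ENSG00000148053, chr9:84668375-85095751, plus strand), which encodes the BDNF and NT-4 receptor TrkB, was close to undetected and passed the filter on low counts in neither table. The 24 h control had 0 reads in 3 libraries, SP 3 h had 2 reads in all, and SP 24 h had 7 reads, all in replicate 2. In the 3 day control 4 reads fell in replicate 1, and SP 3 days had 2, 3 and 0 reads. SP 12 days had 14, 7 and 21 reads, or 0.885, 0.349 and 0.930 CPM, and each of its libraries was above every control and SP 3 day library. Summed over the group, its reads were 9.67 times those of the control (exact 95% interval 3.51 to 37.1).

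BDNF (ENSG00000176697, chr11:27654893-27722058, minus strand) was the ligand with the highest level. The 24 h control had 37.3, 31.9 and 31.8 CPM, and SP 3 h had 22.8, 21.0 and 25.4, all below the control. At 24 h of SP the libraries had 36.2, 28.4 and 30.3 CPM and overlapped the control. The 3 day control had 36.9, 36.1 and 34.0 CPM, SP 3 days had 43.8, 45.4 and 37.6, and SP 12 days had 61.3, 61.7 and 69.1. Both SP groups of that set were above the control, SP 12 days the furthest. The log2 fold change was -0.55 ± 0.14 at 3 h, -0.09 ± 0.13 at 24 h, 0.24 ± 0.09 at 3 days and 0.84 ± 0.09 at 12 days. The antisense gene BDNF-AS shares 988 of the 7740 exonic bases of BDNF and held 45 to 504 reads per group, compared with 1593 to 3765 for BDNF. Whether reads were counted by strand is not given in the sources used here, so reads in the shared bases cannot be told apart.

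NTF4 (ENSG00000225950, chr19:49061066-49065076, minus strand), the NT-4 gene, was low throughout but higher in every SP library than in every control library of its set. Its 24 h control libraries had 0.106, 0.0528 and 0.140 CPM. SP 3 h had 0.353, 0.908 and 0.652 CPM, and SP 24 h had 0.526, 0.604 and 0.507. In the later set the control had 0.670, 0.501 and 0.532 CPM, SP 3 days had 1.89, 1.89 and 1.62, and SP 12 days had 2.15, 1.15 and 2.57. The log2 fold change was 2.63 ± 0.48, 2.34 ± 0.48, 1.63 ± 0.34 and 1.76 ± 0.33 in order of time. Of its 2343 exonic bases 1169 are shared with 3 other genes, so its counts are uncertain. NTF3 (ENSG00000185652, chr12:5432108-5521536, plus strand), the NT-3 gene, had 0 reads in all 18 libraries. A count of 0 over a group allows up to 0.0303 to 0.0606 CPM, depending on the group, from a limit of 3 reads.

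SORT1 (ENSG00000134243, chr1:109309568-109397918, minus strand) encodes sortilin, which binds proneurotrophins together with NGFR and also sorts proteins in the Golgi. It had the highest level of the 8 genes in every group. The 24 h control had 75.2, 100.1 and 90.9 CPM, SP 3 h had 98.4, 132.7 and 92.9, and SP 24 h had 114.9, 173.8 and 137.1. SP 3 h overlapped the control and SP 24 h was above it. The 3 day control had 164.0, 164.3 and 158.8 CPM, SP 3 days had 248.7, 248.8 and 260.4, and SP 12 days had 198.6, 187.3 and 205.3. The 3 groups of that set did not overlap, with SP 12 days between the others. The log2 fold change against control was 0.28 ± 0.19 at 3 h, 0.68 ± 0.19 at 24 h, 0.64 ± 0.07 at 3 days and 0.28 ± 0.07 at 12 days.

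SORCS2 (ENSG00000184985, chr4:7192538-7742836, plus strand) encodes SorCS2, a receptor related to sortilin that also pairs with NGFR. The 24 h control had 2.38, 3.17 and 8.17 CPM, SP 3 h had 5.86, 4.61 and 3.10, and SP 24 h had 8.46, 8.48 and 13.3. The control value of 8.17 is from replicate 3 and lies above all SP 3 h libraries. The 3 day control had 0.526, 1.38 and 1.36 CPM, SP 3 days had 8.23, 7.25 and 8.02, and SP 12 days had 5.88, 4.09 and 8.46. In this set both SP groups were above the control. The log2 fold change was -0.06 ± 0.45 at 3 h, 1.11 ± 0.44 at 24 h, 2.89 ± 0.32 at 3 days and 2.54 ± 0.32 at 12 days.

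**Figure D2:**
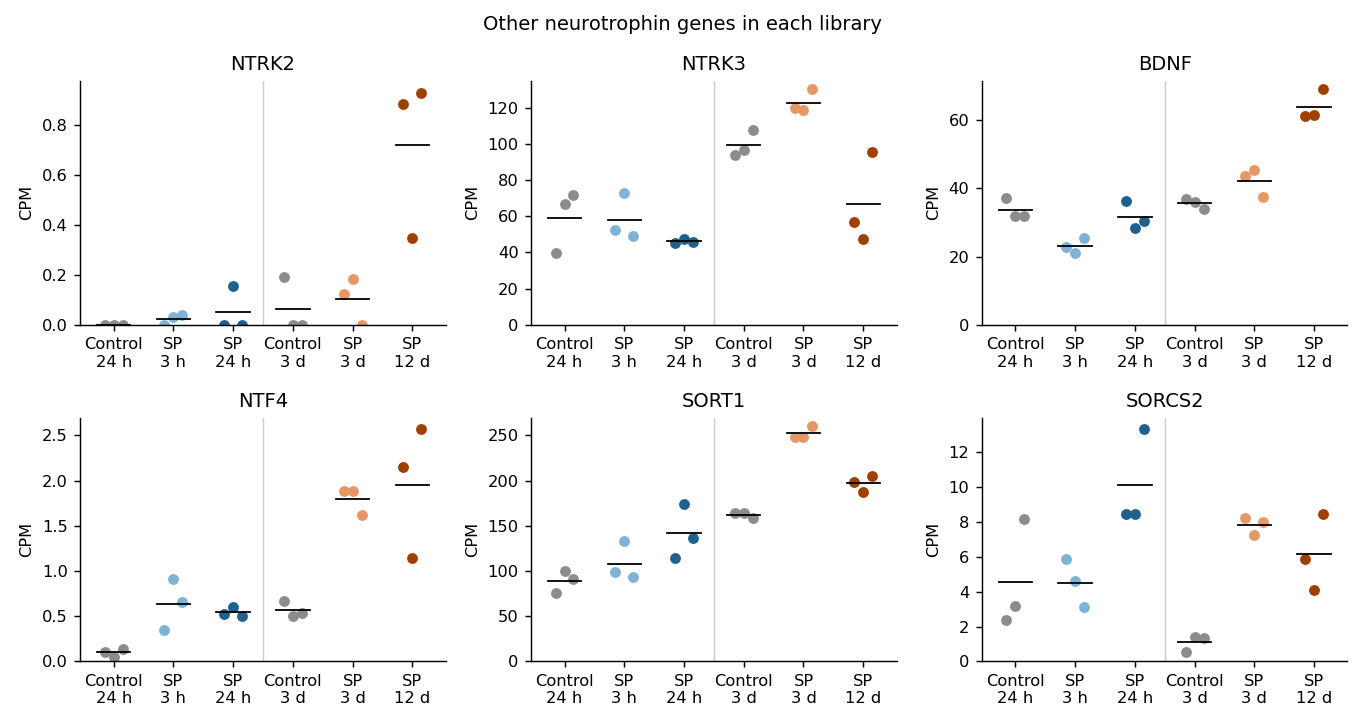
Level of NTRK2, NTRK3, BDNF, NTF4, SORT1 and SORCS2 in each library, in CPM, each panel starting at 0. Points are single libraries and bars the mean of 3, with the highest NTRK3 value at 12 days (95.4 CPM) in replicate 3 and the SORT1 values of SP 3 days between 248.7 and 260.4 CPM.

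The bases before the start of the gene with the highest level and of the gene with no reads are set side by side to show CpG content at a start of each. The table lists more than 1 start for both, and the windows shown are those of the outermost start, chosen for that position alone. RefSeq entries for GRCh38.p14 matched 6 of the 8 genes, and NGFR and SORCS2 had none in that table. The windows are the 250 bases upstream of the start, at chr1:109397919-109398168 (minus strand) for SORT1 and chr12:5431858-5432107 (plus strand) for NTF3, and CpG pairs are in capitals.
SORT1: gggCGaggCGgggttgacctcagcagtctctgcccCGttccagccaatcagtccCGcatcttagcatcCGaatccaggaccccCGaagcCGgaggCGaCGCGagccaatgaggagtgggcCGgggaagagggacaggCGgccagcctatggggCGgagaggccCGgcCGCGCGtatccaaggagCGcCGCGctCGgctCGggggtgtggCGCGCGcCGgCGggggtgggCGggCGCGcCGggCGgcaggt
NTF3: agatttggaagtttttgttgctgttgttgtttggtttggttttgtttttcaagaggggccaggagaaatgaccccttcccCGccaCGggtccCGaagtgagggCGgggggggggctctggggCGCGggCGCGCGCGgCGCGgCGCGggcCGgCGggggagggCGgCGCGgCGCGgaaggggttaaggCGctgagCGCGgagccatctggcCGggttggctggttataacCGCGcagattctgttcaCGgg
The SORT1 window held 32 CpG pairs and 3 copies of the GC box GGGCGG, counted on both strands, and was 74.0% G or C. The NTF3 window held 28 CpG pairs and 2 copies of the box and was 66.4% G or C. Of the 35116 promoters in the table, the middle one held 11 CpG pairs, 32.4% held at least 20, and 42.6% held at least 1 GGGCGG. Both windows shown hold more CpG than the upper quartile of 23. The windows of the second listed start hold 2 CpG pairs for SORT1 (42.8% G or C) and 9 for NTF3 (55.2%), and which start the cells use was not measured. The SORT1 gene had 5908 to 14665 reads per group and NTF3 had 0.

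Levels were compared between genes per kb of annotated exon. In the 3 day control the order of mean CPM per kb was SORT1 (17.8), BDNF (4.61), NTRK3 (3.71), NTF4 (0.242), SORCS2 (0.172), NGFR (0.0273) and NTRK2 (0.00192), with NTF3 at 0. NTF4 and SORCS2 overlapped there, as did NTRK2 and NTF3, and all other neighbours were apart. After 3 days of SP, NGFR had moved from 6th to 4th with 3.58 ± 0.345 CPM per kb (SD, n = 3), just below NTRK3 with 4.60 ± 0.24. In the 24 h set NGFR moved from 5th in the control (0.0482) to 4th at 3 h (1.05) and to the 2nd place at 24 h (4.48), where its libraries overlapped those of BDNF (4.09). At 12 days the libraries of NTRK3, NGFR, SORCS2 and NTF4 overlapped from each to the next. Annotated exons of NTRK2 and NTRK3 sum to 33.162 and 26.773 kb over all isoforms, which lowers their values per kb relative to a single transcript.

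**Figure D3:**
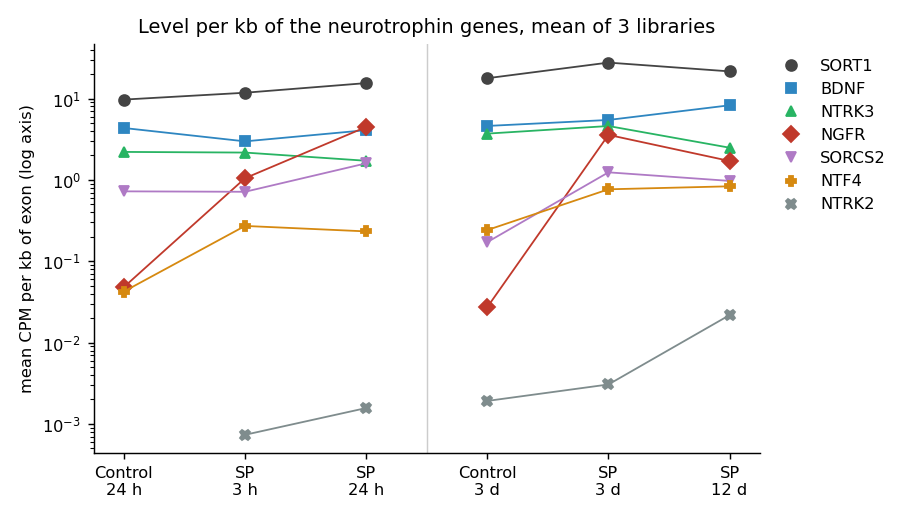
Mean level of 7 genes in CPM per kb of exon on a log axis, in the 24 h set on the left and the 3 day set on the right; groups are joined by lines only within a set, and means of 0 (NTRK2 in the 24 h control, NTF3 throughout) are not drawn. NGFR climbs from 0.0482 to 4.48 in the 24 h set and from 0.0273 to 3.58 in the 3 day set, while SORT1 stays at the top.

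Only 6 of the 8 genes passed the filter on low counts. NGFR, with 2 to 5 reads per control library, passed it through its SP libraries, so it had to differ from control. The same holds for NTF4, with 1 to 4 reads per library in the 24 h control and 8 to 14 in the 3 day control. SORCS2 had 11, 22 and 23 reads in the 3 day control. Replicate 1 fell under the minimum once scaled for its depth, so SORCS2 needed SP libraries to pass in that set. At the thresholds of the study, an adjusted p under 0.0001 and at least a 2-fold difference, edgeR called 0.0% of all tested genes at 3 h, 0.685% at 24 h, 8.44% at 3 days and 9.11% at 12 days. The 24 h share was 0.0115%, or 2 genes in place of 119, in the fit with a replicate block. NGFR was among the called genes at 24 h, 3 days and 12 days, and SORCS2 at 3 and 12 days. These contrasts were used in choosing the genes, and nothing is read from the calls.

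**Figure D4:**
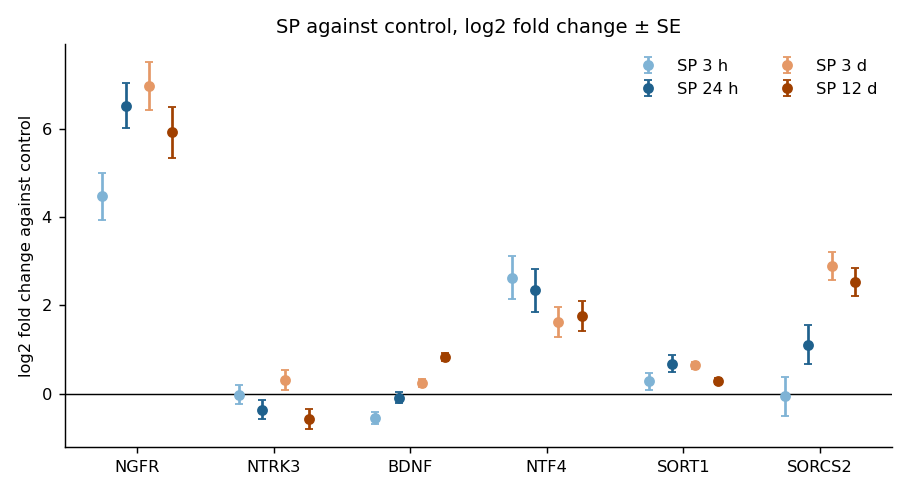
Log2 fold change of SP against control for the 6 genes that passed the filter, with bars of 1 SE and the 4 contrasts in order of time from left to right for each gene. NGFR lies between 4.47 and 6.97, SORCS2 goes from -0.06 at 3 h to 2.89 at 3 days, and BDNF from -0.55 at 3 h to 0.84 at 12 days.

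Contrasts between SP times were not used to choose the genes, although they share the SP libraries with those that were. Each is the difference between contrasts against the same control that were used, so its p-values are not independent of that choice. Between 3 h and 24 h of SP, NGFR rose 4.17-fold (log2 fold change 2.06 ± 0.36, edgeR adjusted p = 0.00488), with all 3 libraries at 24 h above those at 3 h. That rise kept an adjusted p of at most 0.0252 without any single library of the table. BDNF was 1.37-fold higher at 24 h than at 3 h (log2 0.46 ± 0.13, edgeR adjusted p = 0.0408). Its adjusted p went over 0.05 without any 1 of the 6 SP libraries or without control replicate 2, to between 0.0575 and 0.14. SORCS2 was 2.26-fold higher with non-overlapping libraries but did not pass (log2 1.17 ± 0.44, edgeR adjusted p = 0.092), and NTRK3, NTF4 and SORT1 did not pass either (0.313, 0.575 and 0.17). Among all tested genes 11.7% were higher and 8.4% lower at 24 h at an adjusted p under 0.05. The 24 h libraries were all above those at 3 h for 23.3% of tested genes and all below for 21.6%.

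Between 3 and 12 days of SP, BDNF rose 1.52-fold (log2 0.60 ± 0.09, edgeR adjusted p = 0.000955) and SORT1 fell to 0.78 of its 3 day level (log2 -0.36 ± 0.07, edgeR adjusted p = 0.00681). Both passed without any single library of the table, with adjusted p of at most 0.0115 and 0.0333. NTRK3 fell to 0.543 of its level (log2 -0.88 ± 0.22, edgeR adjusted p = 0.0485). This call rested on several libraries: the adjusted p was 0.0737 to 0.0808 without a control library, 0.109 to 0.146 without an SP 3 day library and 0.157 without SP 12 days replicate 1. Without replicate 3 of SP 12 days the NTRK3 log2 fold change was -1.25 (edgeR adjusted p = 2.23e-10).

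NGFR was lower in all 3 libraries at 12 days than in any at 3 days, by a log2 fold change of -1.05 ± 0.29 that just missed the threshold (edgeR adjusted p = 0.0508). The value moved with single libraries. It was -1.60 without replicate 3 of SP 12 days (edgeR adjusted p = 3.72e-08), -0.76 without replicate 2 (edgeR adjusted p = 0.0291) and -0.96 without replicate 1 (edgeR adjusted p = 0.18). NTF4 and SORCS2 did not pass (0.12 ± 0.28 and -0.34 ± 0.25 on the log2 scale). NTRK2 had 7.12 times the summed reads of SP 3 days (exact 95% interval 2.82 to 23.1). Among all tested genes 4.46% were higher and 3.65% lower at 12 days than at 3 days. The 12 day libraries were all above those at 3 days for 13.9% of tested genes and all below for 12.9%. At the stricter thresholds edgeR called 0 of the 8 genes in either contrast between times, where 0.18% and 0.0288% of tested genes were called, later set first. At an unadjusted p under 0.05 in edgeR there were 4 and 3 genes, beside 4140 of 17775 and 5996 of 17377 tested genes. DESeq2 called 0 and 1, where it called 0.534% and 3.78% of tested genes.

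The rest of the pathway was taken from 5 lists with 139 genes that hold none of the 8, of which 126 were tested in the 24 h set and 129 in the 3 day set. At an adjusted p under 0.05 in edgeR, 19 genes were higher and 5 lower in SP at 3 h, compared with 7.39% and 4.11% of all tested genes. The numbers were 32 and 14 at 24 h (16.8% and 12.0% of all), 44 and 31 at 3 days (25.2% and 23.3%), and 52 and 30 at 12 days (26.4% and 23.4%). With the GC content and length trend removed, the splits were 21 to 10, 26 to 27, 38 to 45 and 45 to 42 in the same order. The shares of all tested genes under that correction were 8.59% higher and 8.94% lower at 3 h, 14.1% and 24.2% at 24 h, 21.3% and 33.3% at 3 days, and 22.6% and 32.1% at 12 days. It moved the median of all genes from -0.01 to -0.13 on the log2 scale at 24 h. Without replicate 1 of the 24 h control, 29 genes in place of 46 passed at 24 h. In that fit 19.6% of all tested genes passed, in place of 28.8%. Between SP times, 9 genes were higher and 10 lower at 12 days than at 3 days, and 18 higher and 11 lower at 24 h than at 3 h. The first of these counts went from 19 to 49 without replicate 3 of SP 12 days, and to 6 without SP 3 days replicate 2 or SP 12 days replicate 1. It was 8, 9 and 12 without SP 3 days replicate 1, SP 3 days replicate 3 and SP 12 days replicate 2. The share of all tested genes moved alike, from 8.1% to 28.1% without replicate 3 of SP 12 days. That share was 3.44% without SP 3 days replicate 2 and 3.04% without SP 12 days replicate 1. In the remaining fits it was 3.87%, 3.32% and 4.99%, in the order given.

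Of the 13 other ligands and receptors 9 or 10 were tested, and 1 rose at 3 h, 6 at 24 h, 8 at 3 days and 9 at 12 days. None was lower by edgeR or DESeq2 at an adjusted p under 0.05, or at an unadjusted p under 0.05 in edgeR. This list, like the others, was chosen with earlier results of these data known, so the counts only describe the listed genes. The median log2 fold change was 0.26, 1.01, 0.83 and 0.63, against 0.00 to -0.02 over all genes. With the GC content and length trend removed, 2, 5, 7 and 6 genes rose and none fell. LINGO1, which forms a signalling complex with NGFR and the Nogo receptor, had log2 fold changes of 1.77 ± 0.23 at 24 h (edgeR adjusted p = 0.000626), 3.26 ± 0.14 at 3 days (8.19e-11) and 3.37 ± 0.14 at 12 days (5e-11). RTN4RL1, a Nogo receptor relative, rose from 3.39 to 26.0 CPM at 3 days (log2 2.94 ± 0.11, edgeR adjusted p = 3.16e-11). RTN4RL2, another relative, rose by 2.53 ± 0.39 at 24 h (edgeR adjusted p = 0.00175).

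**Figure D5:**
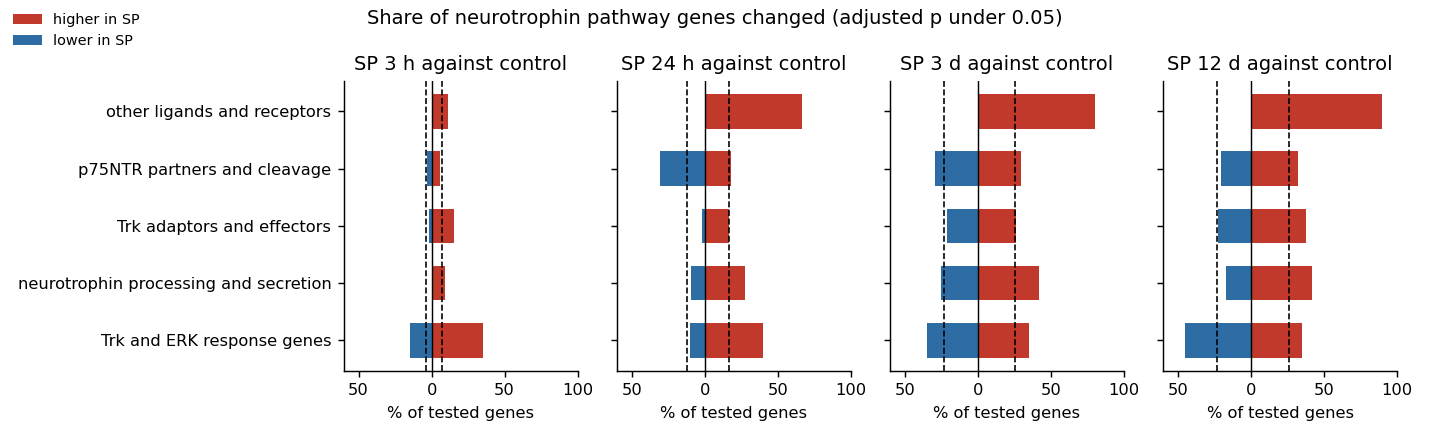
Share of the tested genes of each pathway list that were higher in SP (red, to the right) or lower (blue, to the left) at an adjusted p under 0.05, in the 4 contrasts with control. Dashed lines give the same shares over all tested genes, such as 25.2% and 23.3% at 3 days, and the other ligands and receptors reach 90.0% higher at 12 days.

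Partners of the NGFR intracellular domain and the proteases that cut the receptor did not move in a single direction. Of 35 genes 33 or 34 were tested, with 2 higher and 1 lower at 3 h, 6 and 10 at 24 h, 10 and 10 at 3 days, and 11 and 7 at 12 days. MAGEH1, a relative of the p75-binding protein NRAGE, rose at 24 h, 3 days and 12 days, to 25.7 from 10.7 CPM at 3 days (log2 1.26 ± 0.14, edgeR adjusted p = 1.98e-06). NGEF, a guanine nucleotide exchange factor, rose by 1.52 ± 0.13 at 3 days (edgeR adjusted p = 9.69e-08). IRAK1, a kinase recruited with MYD88, fell from 666.8 to 342.5 CPM at 24 h (log2 -0.96 ± 0.13, edgeR adjusted p = 0.00077). BCL2L11, the pro-apoptotic gene of BIM, rose by 1.09 ± 0.21 at 3 h (edgeR adjusted p = 0.00993) and was lower at 12 days (log2 -0.93 ± 0.14, edgeR adjusted p = 3.64e-05).

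All 53 adaptors and effectors of Trk receptors were tested, and 8 were higher and 1 lower at 3 h, 9 and 1 at 24 h, 14 and 11 at 3 days, and 20 and 12 at 12 days. With the GC content and length trend removed, the later splits were 8 and 10, 12 and 19, and 16 and 17, to be read against the shares of all genes under that correction given above, in which lower genes outnumber higher ones. SH2B2 and SH2B3, adaptors of receptor kinases, rose at 3 h by 1.46 ± 0.16 and 1.37 ± 0.17 on the log2 scale (edgeR adjusted p = 0.00103 and 0.00172). PLCG2, a phospholipase C, rose at 24 h (log2 1.37 ± 0.18, edgeR adjusted p = 0.00068). IRS2, an insulin receptor substrate, fell from 131.3 to 55.7 CPM at 12 days (log2 -1.24 ± 0.10, edgeR adjusted p = 8.76e-08).

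Of the 16 genes for processing and secretion of neurotrophins 11 or 12 were tested, with 1 higher and 0 lower at 3 h, 3 and 1 at 24 h, 5 and 3 at 3 days, and 5 and 2 at 12 days. PLAT, tissue plasminogen activator, which activates the plasmin that cuts proBDNF, rose at all 4 times, by 1.39 ± 0.18, 2.02 ± 0.18, 2.05 ± 0.12 and 1.69 ± 0.12 on the log2 scale, with edgeR adjusted p between 1.74e-09 and 0.00178. PCSK5, a proprotein convertase, rose by 1.22 ± 0.31 at 24 h, 1.44 ± 0.16 at 3 days and 1.96 ± 0.16 at 12 days. PCSK6, a convertase of the same family, fell by 0.55 ± 0.10 and 0.58 ± 0.10 at 3 and 12 days.

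Genes that respond to Trk and ERK signalling moved in both directions. Of 22 genes 20 were tested, with 7 higher and 3 lower at 3 h, 8 and 2 at 24 h, 7 and 7 at 3 days, and 7 and 9 at 12 days. ARC, an immediate early gene of neurons, rose at every time, from 0.349 to 6.41 CPM at 3 days (log2 4.22 ± 0.31, edgeR adjusted p = 2.81e-08). VGF, a neuropeptide precursor, rose by 2.52 ± 0.32 at 24 h, 3.11 ± 0.25 at 3 days and 4.70 ± 0.23 at 12 days (edgeR adjusted p = 1.06e-09 at 12 days). The ERK feedback genes DUSP6 and SPRY2 and the ERK targets ETV4 and ETV5 were among those that fell, with DUSP6 lower by 0.82 ± 0.15 at 3 days (edgeR adjusted p = 0.000358) and ETV4 lower by 1.05 ± 0.11 at 12 days (edgeR adjusted p = 7.83e-07).

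NGFR belongs to the TNF receptor superfamily, and 20 of 28 other members were tested. They were split 3 higher and 2 lower at 3 h, 3 and 2 at 24 h, 8 and 7 at 3 days, and 12 and 4 at 12 days. The shares over all tested genes were 7.39% and 4.11%, 16.8% and 12.0%, 25.2% and 23.3%, and 26.4% and 23.4%. With the GC content and length trend removed, the splits were 4 and 3, 3 and 4, 7 and 7, and 11 and 4. TNFRSF1B, the TNF receptor 2, was at 0.191 CPM in the 3 day control and at 4.83 CPM after 3 days of SP (log2 4.64 ± 0.40, edgeR adjusted p = 1.4e-07). TNFRSF9 rose from 0.187 to 3.72 CPM at 12 days (log2 4.25 ± 0.37). FAS fell by 0.60 ± 0.18 at 3 days, and LTBR by 0.45 ± 0.08 at 12 days.

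Markers of cells known to carry NGFR were looked up beside it. Of all tested genes, 7.39% were higher and 4.11% lower at 3 h, and 16.8% and 12.0% at 24 h. The shares were 25.2% and 23.3% at 3 days, and 26.4% and 23.4% at 12 days. Among 17 airway basal cell markers 11 were tested, and edgeR passed 0 at 3 h (1 at an unadjusted p under 0.05, and 0 by DESeq2). In the later contrasts 4 rose and 1 fell at 24 h, 8 and 1 at 3 days, and 9 and 2 at 12 days. Their summed level was 750 to 824 CPM in the 3 day control and 1310 to 1410 CPM after 3 days of SP. The defining markers KRT5 and KRT14 were at 0 in both of these groups, and TP63 fell from 17.2 to 6.66 CPM (log2 -1.36 ± 0.27, edgeR adjusted p = 0.00179). Of 18 neural crest and glial markers 9 or 10 were tested, and 2 rose and 0 fell at 3 h, 4 and 2 at 24 h, 5 and 2 at 3 days, and 2 and 2 at 12 days. L1CAM rose from 5.13 to 68.7 CPM at 3 days, while PAX3, TFAP2B and EDNRB were at 0 in all 6 groups. The 12 immune, endothelial and fibroblast markers summed to 18.5 to 19.6 CPM in the 3 day control and 65.1 to 76.4 CPM after 3 days of SP, and COL1A1, at 13.3 and 61.9 CPM, made up most of both. The part of these markers in the NGFR values was not tested.

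The likeness of other genes to NGFR was measured as Pearson's r of log2 CPM, centred on the control of each set, over the 18 libraries, which share their library and depth. The 5 genes most like NGFR were FYN, a SRC-family kinase (r = 0.987), PDZD7, a PDZ protein of hair cells (0.987), PLAT (0.986), CLDN4, a tight junction claudin (0.986), and KCNH2, a potassium channel (0.986). Their log2 fold changes were smaller than those of NGFR, between 1.39 and 1.87 at 3 h and between 2.02 and 3.19 at 24 h. These 5 did not stand apart from the next, since the 10th gene still had an r of 0.984. An r over 0.9 was reached by 424 of 14191 genes (2.99%), and the median r was -0.0594. Among the other neurotrophin genes r with NGFR was 0.876 for NTF4, 0.856 for SORT1, 0.729 for SORCS2, 0.184 for BDNF and -0.0769 for NTRK3.

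Genes within 100 kb of the 8 were looked up for shared movement. There were 77 listed neighbours, of which 27 or 28 were tested. At an adjusted p under 0.05 in edgeR, 3 rose and 2 fell of 28 at 3 h and 7 and 4 of 28 at 24 h. Of 27 at the later times 10 rose and 5 fell at 3 days, and 10 and 6 at 12 days. The shares of all tested genes were those given above, 7.39% and 4.11%, 16.8% and 12.0%, 25.2% and 23.3%, and 26.4% and 23.4%. NXPH3, a neurexophilin gene 60863 bases from NGFR, was at 0.121 CPM in the 3 day control and at 4.67 CPM after 3 days of SP (log2 5.30 ± 0.50, edgeR adjusted p = 5.88e-07). At 3 h it was 3.75 ± 0.49 on the log2 scale (edgeR adjusted p = 0.00203). SPOP, 83876 bases from NGFR and named after its values were seen, fell by 0.84 ± 0.11 at 3 h, 0.35 ± 0.11 at 24 h, 0.91 ± 0.10 at 3 days and 0.82 ± 0.10 at 12 days. PHB1 and EIF4EP2, the other tested neighbours of NGFR, had log2 fold changes from -0.49 to 0.36 over the 4 contrasts. PHB1 fell at 24 h (log2 -0.47 ± 0.15, edgeR adjusted p = 0.0406), and no other of these values passed. PPFIA3 near NTF4 rose by 1.30 ± 0.13 at 3 days and is named because it was called at the stricter thresholds. At that time 5 of the 12 tested neighbours of NTF4 rose and 1 fell. Near SORCS2 2 of the 3 tested neighbours rose, 0 fell and 0 were called. SYPL2 near SORT1 rose by 4.52 ± 0.38 at 3 days from 0.117 CPM, and PSRC1 near SORT1 fell by 1.27 ± 0.11 at 12 days.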

How the data were processed

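A549 RNA-seq libraries (18, in 6 groups of 3) were analysed from 2 deposited tables of raw counts per Ensembl gene. Per the labels and the methods of the study, the authors made the counts with STAR 2.7.9a on GRCh38 and featureCounts, kept replicates as separate columns and tested them with DESeq2 1.36.0 in R 4.2.1. Whether counting used strand is not given in the sources used here. Symbols, coordinates and exon lengths came from GENCODE for GRCh38, matched by Ensembl identifier (61369 of 61541 genes).

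Each table was tested by itself with edgeR 4.0.16 (R 4.3.3, robust quasi-likelihood test, TMM factors, minimum count of 10, 1 coefficient per group), with the Benjamini-Hochberg correction across every tested gene, 17377 in the 24 h set and 17775 in the 3 day set. The thresholds of the study (adjusted p below 0.0001, 2-fold) define a called gene, and genes are described as rising or falling at an adjusted p under 0.05. The fit was also run on simulated counts with known fold changes. Those counts held no library that stood apart and no GC content trend, so the run does not cover either. Alternatives were DESeq2 1.42.0, RLE factors, no filter, a fit of only the 2 groups compared, a replicate block, removal of the GC content and length trend, another prior count and leaving out each library. CPM values are counts divided by TMM-scaled library sizes. Counting intervals are exact at 95% and cover counting error only.

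The 8 genes and all lists were chosen with earlier results of these data known. Named beside the 8 were, for each list and contrast, up to 2 rises and 2 falls with the largest change among genes that passed, had a mean count of at least 50 and did not overlap; the 5 genes most like NGFR; and called genes within 100 kb. Some genes that the rule would name are not reported here. SPOP, PHB1 and EIF4EP2 fall outside that rule and were named after their values were seen. No label says that replicate numbers pair libraries. Residuals of same-numbered 24 h SP and control libraries correlated by 0.723, 0.249 and 0.745, and those of SP 24 h replicate 2 by 0.27 with control replicate 3. In the other contrasts with control, same-numbered libraries correlated by -0.817 to 0.456. The replicate block was fitted over all libraries of a set, with SP 3 h among them.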

Additional observations from a re-analysis of the deposited data

Results flagged for a closer look

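5 differences between times of SP passed the test of the difference itself (edgeR, adjusted p under 0.05), and each is given as a value with no explanation. NGFR was higher at 24 h than at 3 h by 2.06 on the log2 scale and BDNF by 0.46. From 3 to 12 days NTRK3 had a log2 fold change of -0.88, BDNF of 0.60 and SORT1 of -0.36. SP and further time in culture cannot be told apart in these contrasts, since no control of 3 h or 12 days was analysed here.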

How the results depend on the processing

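Over the tested genes of the 8 and the 2 contrasts between SP times, 174 of 204 alternative log2 fold changes stayed on the same side of an adjusted p of 0.05, 16 lost the threshold, 14 gained it and 0 reversed a passed direction. The count of the 8 genes called moved as follows, with the share of all tested genes called in the same fit beside it, and nothing is read from the counts against control. At an adjusted p under 0.05 with a 2-fold difference it was 2 at 3 h (4.62% of all), 2 at 24 h (12.0%) and 1 for SP 24 h against SP 3 h (7.55%). DESeq2 gave 1 at 3 h (2.39%) and 1 for SP 24 h against SP 3 h (3.78%), and no filter gave 4 at 12 days (5.78%) and 1 for SP 12 days against SP 3 days (0.424%). With only the groups compared it was 0 at 24 h (0.0234%) and 1 at 12 days (6.92%). With the GC content and length trend removed and the replicate block it was 1 at 3 h (0.138%) and 1 at 12 days (7.93%). Without single libraries it ranged from 0 to 1 at 24 h (0.00556% to 0.488%), from 0 to 3 at 12 days (at least 6.64%) and from 0 to 2 for SP 12 days against SP 3 days (0.0329% to 1.66%), and the cause was not tested. The pathway count at the stricter thresholds was 0 of 126 at 3 h, 1 of 126 at 24 h, 14 of 129 at 3 days and 15 of 129 at 12 days. Among all tested genes 0.0%, 0.685%, 8.44% and 9.11% were called in the same order. It was 0 for SP 12 days against SP 3 days (0.18% of all) and 0 for SP 24 h against SP 3 h (0.0288%). At an adjusted p under 0.05 the pathway count for SP 24 h against SP 3 h rose from 29 to 52 with the GC content and length trend removed. With the replicate block as well it was 54, while the share of all tested genes went from 20.1% to 26.8% and 31.1%. Without single libraries that pathway count ranged from 29 to 62 at 24 h and from 6 to 49 for SP 12 days against SP 3 days. For SP 24 h against SP 3 h it ranged from 19 to 38, 19 being without SP 24 h replicate 2. Over the same fits the share of all tested genes that passed ranged as well. It went from 15.8% to 37.1%, from 3.04% to 28.1% and from 9.73% to 24.7% in the same order. The fit with a replicate block called 1 of the 8 genes at 24 h, as the fit without it did. The blocked fit called 2 of 17377 tested genes (0.0115%) in place of 119, and passed 41 pathway genes in place of 46. The share of all tested genes that passed was 29.0% in place of 28.8%. No label says that libraries of the same number are pairs, and in the other contrasts with control their residual correlations went from -0.817 to 0.456. With the block, NGFR from 3 to 12 days was at -1.14 on the log2 scale (edgeR adjusted p = 0.00418), past the threshold it missed without the block. Control depth limits the NGFR folds, since 2 to 5 reads per control library allow a wide range, and the limit for NTRK2 and NTF3 is the same.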

Other observations

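Markers of the carcinoma line itself moved in both directions. At 3 days of SP 5 of the 11 were higher and 5 lower (edgeR, adjusted p under 0.05), and at 12 days 6 and 5. KRT19, a keratin of simple epithelia, rose from 288.9 to 1312 CPM at 3 days and CDH1, the E-cadherin gene, from 157.7 to 411.9 CPM, while ALDH3A1, an aldehyde dehydrogenase, fell from 1933 to 322.4 CPM.

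The antisense gene BDNF-AS held 83, 45 and 141 reads in the 24 h control, SP 3 h and SP 24 h groups, and 365, 379 and 504 reads in the 3 day control, SP 3 day and SP 12 day groups. NTRK3-AS1 held 5 to 34 reads per group.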
